A study of Mus musculus with 5 samples.

Results

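Within the tiled sequence of mouse chromosome 17, 3 stretches carry little transcription in embryo fibroblasts, and their silent level, the few islands of signal inside them and the presence of those islands in each sample are described here. They span file positions 35 to 40 Mb (segment 1), 55 to 60 Mb (segment 2) and 90 to 95 Mb (segment 3). They were chosen by their low window levels on these arrays, so their levels are a description. Every 5 kb window with at least 8 probes inside those limits is a member, which gives 1948 of the 15383 windows of the chromosome, with 577 in segment 1, 875 in segment 2 and 496 in segment 3. Probes end at 93559624, so segment 3 is cut short. Windows with enough probes made up 57.7%, 87.5% and 69.8% of those possible, against 84.9% for the chromosome, so much of segment 1 was not read.

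The cells were spontaneously immortalised fibroblast lines from FVBN mouse embryos at 12.5 dpc. Both lines carry the Thp deletion, which per the labels removes at least 4.6 Mb between the genes T and Sod2, starting near 8.6 Mb in mm9, with the imprinted Igf2r cluster of 400 kb. MEFF (Thp/+) and MEFB (+/Thp) have lost it on opposite parental copies, and the labels call their chromosome 17 otherwise identical. The 5 arrays are 2 of total RNA from MEFF, 2 of its polyA RNA and 1 of MEFB polyA RNA, each setting Cy3-labelled double-stranded cDNA against Cy5-labelled genomic DNA, the input, with no dye swap. MEFB is 1 array of 1 line, and nothing says whether the 2 MEFF arrays of a kind hold RNA of different cultures. The p-values then rest on a spread that may be technical. Only chromosome 17 was read, so markers of fibroblasts on other chromosomes could not be checked. Total RNA and polyA RNA were hybridised on different slide series, so the type of RNA and the slide lot cannot be told apart.

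Gene-poor stretches of mammalian chromosomes are typically rich in A and T, and they often hold clusters of receptor genes that only sensory neurons or germ cells use. Olfactory receptor genes and the M region of the major histocompatibility complex (MHC), some of whose class I genes are used in the vomeronasal organ, form such clusters on this chromosome. Genes used by every cell usually start in a stretch rich in CG dinucleotides, a CpG island, whereas genes of few cell types often do not.

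The sources used here name no genome build for the file positions. A place on NCBIM37 was therefore sought for the probes from the genomic DNA signal alone, which follows base composition, with no cDNA value used. This placed 1424 member windows (73.1%), with 64.1%, 76.8% and 77.0% of the windows of segments 1 to 3. The shift from file position to NCBIM37 lay between 1577243 and 1989438 bp, 1800204 and 1814579 bp, and 1617405 and 1775565 bp. Windows between placed ones with slightly different shifts are named at a resolution of 5 kb and give no exon values. The placing put 82.6% of the placed member probes between genes, 14.5% in introns and 1.96% in exons of protein-coding genes. Segment 3 was the emptiest, with 0.196% of its placed probes in exons.

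The upstream sequence of 6 genes of the segments is shown to set genes at islands beside silent ones. Gtf2f1 and Mllt1 were bright on every array. Zfp57 was bright too, with few CG dinucleotides. C3 lies at an island called in MEFB alone, Rfx2 is rich in CG but lies in no island, and Olfr109 is a silent olfactory receptor gene. Each is the 250 bases before a RefSeq start of the gene (GRCm38.p6), 5′ to 3′ on the gene's strand, with every CG dinucleotide in capitals. For Zfp57 that start lies inside the gene as annotated on NCBIM37. Its few CG dinucleotides therefore do not describe the annotated start further upstream. Gtf2f1 lies at chr17:57011289-57011538 (minus strand), Mllt1 at chr17:56935389-56935638 (minus), Zfp57 at chr17:37003416-37003665 (plus), C3 at chr17:57228137-57228386 (minus), Rfx2 at chr17:56831009-56831258 (minus) and Olfr109 at chr17:37465958-37466207 (plus).
Gtf2f1: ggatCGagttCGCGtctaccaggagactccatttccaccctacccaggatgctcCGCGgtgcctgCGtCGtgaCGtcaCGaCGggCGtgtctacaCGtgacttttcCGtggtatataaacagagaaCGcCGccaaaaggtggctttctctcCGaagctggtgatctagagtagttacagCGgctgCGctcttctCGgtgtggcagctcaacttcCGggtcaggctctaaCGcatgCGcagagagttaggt
Mllt1: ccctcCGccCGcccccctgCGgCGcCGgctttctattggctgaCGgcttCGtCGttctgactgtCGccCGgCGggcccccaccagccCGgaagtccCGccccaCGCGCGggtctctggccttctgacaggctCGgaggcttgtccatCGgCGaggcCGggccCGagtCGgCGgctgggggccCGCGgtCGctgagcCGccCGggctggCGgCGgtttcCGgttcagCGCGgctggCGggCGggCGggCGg
Zfp57: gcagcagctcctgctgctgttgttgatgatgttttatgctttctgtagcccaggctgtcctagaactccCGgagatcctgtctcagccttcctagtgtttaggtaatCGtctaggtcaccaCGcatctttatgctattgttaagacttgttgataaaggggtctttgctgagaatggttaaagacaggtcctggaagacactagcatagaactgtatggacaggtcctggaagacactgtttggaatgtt
C3: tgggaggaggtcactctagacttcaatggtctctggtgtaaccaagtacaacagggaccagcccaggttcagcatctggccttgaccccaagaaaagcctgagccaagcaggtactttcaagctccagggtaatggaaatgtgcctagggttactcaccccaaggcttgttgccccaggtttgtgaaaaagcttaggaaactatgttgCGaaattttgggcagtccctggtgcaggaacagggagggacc
Rfx2: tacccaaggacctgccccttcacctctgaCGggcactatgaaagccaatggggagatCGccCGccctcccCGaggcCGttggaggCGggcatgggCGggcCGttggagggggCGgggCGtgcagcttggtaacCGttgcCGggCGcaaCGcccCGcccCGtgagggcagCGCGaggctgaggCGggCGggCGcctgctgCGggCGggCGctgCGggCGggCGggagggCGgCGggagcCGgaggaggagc
Olfr109: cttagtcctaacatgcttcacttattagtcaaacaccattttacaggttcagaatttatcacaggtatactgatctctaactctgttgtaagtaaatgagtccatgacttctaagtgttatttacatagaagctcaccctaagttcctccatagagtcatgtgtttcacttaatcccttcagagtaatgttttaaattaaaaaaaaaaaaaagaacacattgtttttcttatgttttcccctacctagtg

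These 250 bases held 22 CG dinucleotides for Gtf2f1, 37 for Mllt1, 3 for Zfp57, 1 for C3, 30 for Rfx2 and 0 for Olfr109. CG reads the same on both strands, so 1 search covers both. Of 64 protein-coding genes at islands or with placed probes, 46 had an entry in the table of sequences. Among 24 genes overlapping islands, the median was 15.5 CG (range 0 to 37) and 15 (62.5%) had at least 10. Among 22 genes at no island, the median was 1.5 and 1 gene, Rfx2, had at least 10. Over all 27025 promoters of the table, 38.2% had at least 10. The 9 olfactory receptor genes with an entry held between 0 and 3.

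A level is the mean log2(cDNA/input) of a window, centred on the median of the array, so 0 is the middle of that array's probes and not the absence of RNA. An array's high windows are its top 10% along the chromosome, and the limits of the 5 arrays, in the order used below, were 0.40, 0.38, 0.40, 0.76 and 0.72. An island window of a group is high on each array of the group. An island is a run of member windows called in at least 1 group, with gaps of up to 1 window. A silent window is high on no array. Values of the 5 arrays are given in the order MEFF total RNA 1 and 2, MEFF polyA RNA 1 and 2, MEFB.

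Of the 1948 member windows, 1863 (95.6%) were silent, against 83.6% of windows elsewhere on the chromosome. Their median level was -0.063, -0.046, -0.027, -0.101 and 0.028 on the 5 arrays. The 5th and 95th percentiles were -0.45 and 0.23 on MEFF total RNA 1, and -0.62 and 0.29 on MEFF polyA RNA 2, which had the widest spread of the MEFF arrays. In MEFB they were -0.47 and 0.44. Silent windows thus formed a band around the array median on all 5 arrays.

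The silent band of the segments was not lower than the silent band elsewhere when read as a ratio. The 11234 silent windows outside had medians of -0.141, -0.142, -0.101, -0.196 and -0.178, so each array read the silent windows of the segments higher. By group (means of array medians), the segments lay above by 0.09 for MEFF total RNA, 0.08 for its polyA RNA and 0.21 for MEFB. The channels ran differently: with the cDNA channel alone the silent segment windows lay below those outside by small amounts, with differences of -0.06, -0.04 and -0.11. The input channel of these windows averaged -0.043, -0.044 and -0.294 in the same order, against 0.139, 0.105 and 0.071 outside. Probes among the weakest 10% of input on any array were then removed, which left 1559 member windows. The differences in ratio were 0.02, 0.01 and 0.10 on that smaller set. The higher ratio of silent segment windows therefore went with a dimmer genomic DNA signal, and its direction was the opposite in the cDNA channel.

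**Figure D1:**
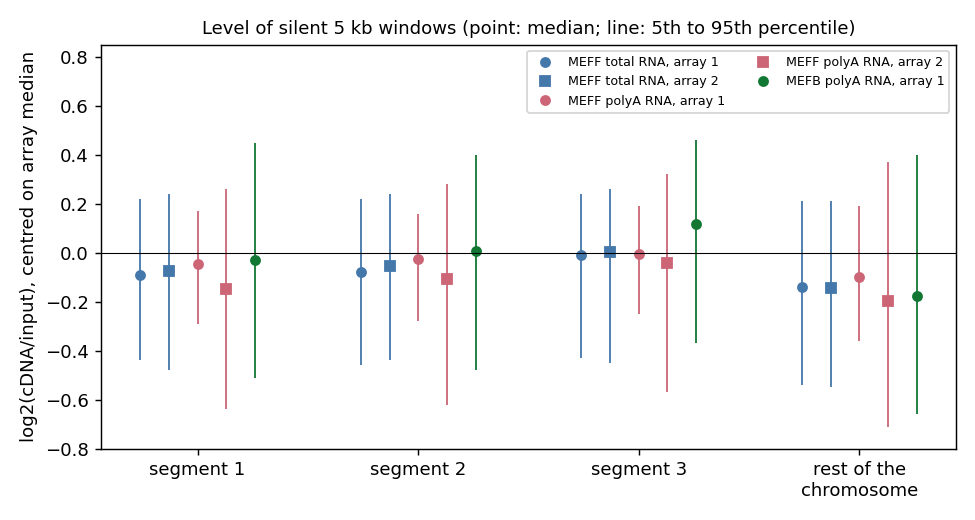
Level of silent windows, as log2(cDNA/input) centred on the array median, for each array in the 3 segments and in the rest of the chromosome. Points are medians and lines run from the 5th to the 95th percentile of windows; the 5 medians of segment 3 (-0.043 to 0.119) lie above those of the rest of the chromosome (-0.196 to -0.101).

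As a ratio, segment 3 had the highest silent level of the 3. Its medians were -0.008, 0.004, -0.004, -0.043 and 0.119, against -0.089, -0.075, -0.047, -0.147 and -0.03 in segment 1. Segment 2 lay between them on all 5 arrays, at -0.078, -0.056, -0.025, -0.107 and 0.008. The pair of MEFF polyA arrays differed by more than segments 1 and 2 did on any MEFF array, so the step between those segments was small. Each array reads both segments, and their order was the same on all 5 arrays, but it was not tested. In the cDNA channel alone the medians of segment 3 were -0.063, -0.060, 0.028, -0.087 and -0.141, near those of segment 1 (-0.061, -0.049, 0.026, -0.067 and -0.119), and segment 3 was no longer the highest on 4 of the 5 arrays.

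Base composition varied together with the silent level. Across 1376 placed silent windows, the correlation of level with GC content was -0.419, -0.454, -0.386, -0.321 and -0.588 on the 5 arrays. These are correlations over windows that share arrays and sequence, given as a description. The windows were placed by matching the genomic DNA channel with base composition, and that channel is the denominator of the level, so a link with GC is in part built in. In the 459 windows with the least GC (29.0 to 36.8%), the median level was 0.05, 0.07, 0.03, 0.04 and 0.20. In the 459 with the most (39.2 to 55.6%), it was -0.17, -0.16, -0.09, -0.23 and -0.14. The input signal went the other way, from -0.51 in the former to -0.09 in the latter in MEFB. Windows kept their place in the band from array to array: over the 1863 silent windows, the correlation between arrays lay between 0.716 and 0.918. Array pairs of different RNA and line were in that range too, and these windows share probes and base composition.

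Islands were few. In MEFF total RNA, 43 member windows (2.21%) were island windows, where the share over all windows was 9.2%. In MEFF polyA RNA there were 57 (2.93%, against 8.9% of all windows), and 53 in MEFB (2.72%, against 10%). Since the segments were chosen for low signal, these shares are no test. By segment, the counts in the 3 groups were 16, 19 and 25 in segment 1, 24, 34 and 24 in segment 2, and 3, 4 and 4 in segment 3. The islands numbered 23, with 9 in segment 1, 9 in segment 2 and 5 in segment 3. They covered 390 kb in all, the longest was 50 kb, and 8 were a single window.

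Most island windows lay in the first or last Mb of a segment. Of 14 bins of 1 Mb, 6 held 0 island windows in every group, as did 8 of 77 bins outside. The first Mb of segment 2 had 13.5%, 18.7% and 14.0% of its 171 windows called in the 3 groups, and the first Mb of segment 1 had 6.16%, 8.9% and 11% of 146. The last Mb of segment 3 had 3.03%, 6.06% and 4.55% of 66 windows. Within 500 kb, the start of segment 2 was the one edge next to a dense stretch. In the 500 kb outside it, 42.7%, 48.3% and 34.8% of 89 windows were called. In the 500 kb inside it, 20.2%, 27.3% and 18.2% of 99 were. At the other edges with probes on both sides, at most 13.3% of windows were called within 500 kb outside and at most 8.57% inside. Over the whole Mb before segment 1 the shares were higher, at 21.7%, 31.5% and 30.8% of 143 windows. Around the ends of segments 1 and 2 and the start of segment 3, no group passed 1.19% on either side.

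**Figure D2:**
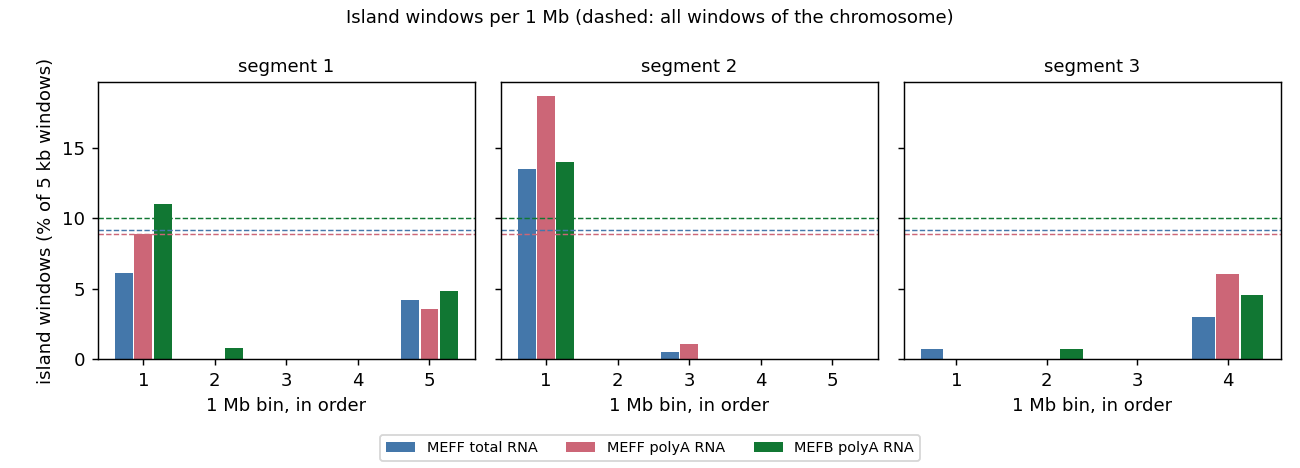
Share of 5 kb windows that are island windows in each 1 Mb bin of the 3 segments, in order along the chromosome; bars are the 3 groups and dashed lines give the share over all windows of the chromosome (9.2%, 8.9% and 10%). Bars stand almost only in the outermost bins, with the tallest, 18.7% in MEFF polyA RNA, in the first bin of segment 2.

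The longest stretches with no island window in any group ran for 2.29 Mb in segment 1 (36725000 to 39014999, 178 windows), 2.65 Mb in segment 2 (57345000 to 59999999, 475 windows) and 2.4 Mb in segment 3 (91100000 to 93494999, 344 windows). Median levels in the first were -0.12, -0.09, -0.07, -0.19 and -0.04. In the second they were 0, 0.02, 0.01, -0.04 and 0.12, and in the third -0.02, -0.02, -0.01, -0.06 and 0.09. No window of these stretches passed 0.71 on any array, although some were high on 1 array of a pair. On NCBIM37 the placed parts of the first stretch spanned 38314966 to 41003748, with 15 protein-coding genes. Among them were 4 olfactory receptor genes, the testis phosphoglycerate kinase gene Pgk2, the sperm and epididymis genes Crisp1, Crisp2 and Crisp3, and Rhag, a membrane protein of red blood cells. These genes are listed by position alone, and not all of them were read. Pgk2, Crisp2, Olfr135 and Olfr138 had no placed probe, and Crisp3 had no placed exon probe. The second stretch spanned 59152414 to 61790295, where Nudt12 at its edge was the sole protein-coding gene. The third spanned 92760803 to 94957405, with Adcyap1, which encodes the neuropeptide PACAP, as its sole protein-coding gene.

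Exon, intron and other probes were averaged inside and outside the islands. Islands were called on the mean of these same probes, so higher values inside than outside are built in. The overlap of bright genes with islands is in part built in too. In placed island windows, 275 exon probes averaged 1.34, 1.36, 2.21, 3.2 and 2.83 on the 5 arrays. The 513 intron probes there averaged 0.32, 0.31, 0.47, 0.90 and 0.70, and the 272 probes between genes 0.25, 0.22, 0.30, 0.62 and 0.77. Outside islands, 306 exon probes averaged -0.27, -0.22, -0.04, -0.14 and -0.15, no higher than the 24260 probes between genes (-0.05, -0.03, -0.02, -0.09 and 0.06). Signal in the islands was thus concentrated on exons, which the placing did not use. Of 51 protein-coding genes with a placed member probe, 46 had at least 3 exon probes. Their mean exon level was at least 0.5 on every array for 11 genes, all of which reach into an island window, below 0.5 on every array for 27, and mixed for 8. The 11 were Gtf2f1, Khsrp, Zfp57, Mut, Mllt1, Ppp1r11, Clpp, Gabbr1, Znrd1, Cenpq and Nudt12. The mixed ones were Znrd1as, H2-M5, 9130008F23Rik, Rfx2, Alkbh7, Pspn, Gm20516 and Crisp1. Of the 27, Rnf39 and Mog reach into an island window.

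**Figure D3:**
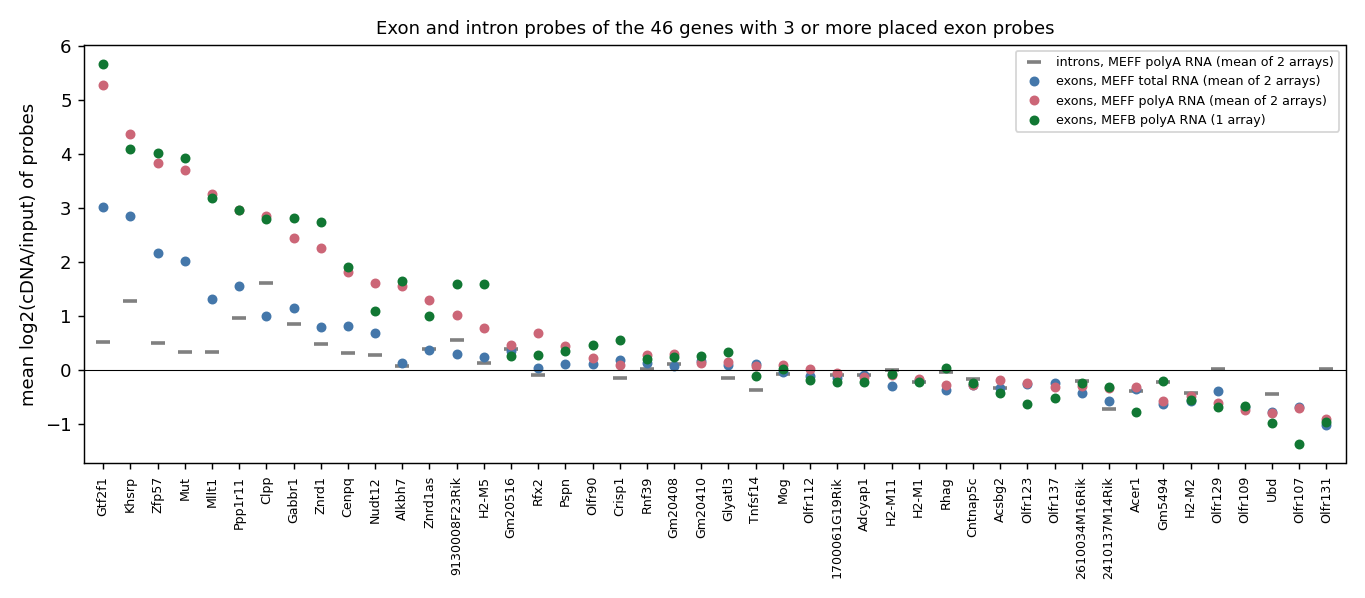
Mean log2(cDNA/input) of exon probes for the 46 genes, ordered by their mean over the arrays, in MEFF total RNA and MEFF polyA RNA (means of 2 arrays) and MEFB (1 array), with the intron mean of the MEFF polyA arrays as grey bars. Gtf2f1, Khsrp, Zfp57 and Mut stand highest, with introns far below exons, and olfactory receptor genes lie at or below 0.46.

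Segment 1 had 5 islands near its start, 4 of which could be placed. The island from 35470000 to 35489999 (chr17:37083994-37103993 on NCBIM37) covered Rnf39, Ppp1r11, Znrd1 and Znrd1as. Its level was 0.38, 0.40, 0.69, 1.08 and 0.90. Exons of Ppp1r11, an inhibitor of protein phosphatase 1, stood at 1.54, 1.58, 2.33, 3.6 and 2.96 (14 probes). Those of Znrd1, a subunit of RNA polymerase I, stood at 0.68, 0.92, 1.8, 2.72 and 2.74 (5 probes). Both genes were read on all arrays, whereas the 12 exon probes of Rnf39, a RING finger gene, stayed between 0.10 and 0.42. Znrd1as, which starts beside Znrd1 on the other strand, stood at 0.41, 0.34, 0.87, 1.72 and 1.0 (9 probes).

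The island from 35520000 to 35534999 (chr17:37133994-37148993) covered Zfp57, a zinc finger protein that keeps DNA methylation at imprinted genes. Exon probes of Zfp57 stood at 2.12, 2.23, 3.24, 4.41 and 4.02 (29 probes), and its introns at 0.27, 0.23, 0.30, 0.72 and 0.67. The neighbouring myelin gene Mog reaches into the same island, and its 12 exon probes stayed between -0.06 and 0.23. Of the pair, only Zfp57 had high exon levels. The brightest window of the island, from 35525000, was the highest of segment 1, at 1.31, 1.4, 1.96, 2.97 and 2.63.

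The island from 35570000 to 35604999 (chr17:37183994-37218993) was the longest of the first Mb and covered Gabbr1, a subunit of the GABA-B receptor. Its exons stood at 1.17, 1.13, 1.99, 2.9 and 2.82 (62 probes), and its introns at 0.45, 0.38, 0.64, 1.07 and 1.02 (130 probes). All 5 arrays read the gene, although it is best known from neurons. An island of 20 kb from 35365000, read in all 3 groups at 0.37, 0.32, 0.66, 1.03 and 1.17, was not placed and has no gene name here. A single window from 35795000 at H2-M3, a non-classical class I gene, was called in both polyA groups, with 0.84, 1.15 and 1.27 against 0.35 and 0.27 in total RNA.

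At the far end of segment 1, the island from 39070000 to 39109999 (chr17:41058749-41098748) covered Mut, the mitochondrial methylmalonyl-CoA mutase, and Cenpq, a centromere protein. Exons of Mut stood at 2.03, 2.01, 3.23, 4.18 and 3.93 (24 probes) beside introns at 0.18, 0.23, 0.28, 0.41 and 0.41. Exons of Cenpq stood at 0.80, 0.84, 1.45, 2.2 and 1.9 (21 probes). Their starts overlap on opposite strands, and the cDNA keeps no strand. Glyatl3, the next gene, lay at most at 0.34 on its 8 exon probes.

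In segment 2, all islands but 1 lay in the first Mb, along a row of closely spaced genes. The longest of all, from 55005000 to 55054999 (chr17:56814028-56864027), covered Ranbp3, a partner of the nuclear transport protein Ran, Vmac and Ndufa11, a subunit of respiratory complex I. It stood at 0.47, 0.46, 0.77, 1.37 and 0.93. The window from 55095000 at Dus3l, a tRNA-modifying enzyme, stood at 0.73, 0.76, 1.57, 2.54 and 2.0. The island from 55220000 to 55234999 (chr17:57028292-57043291) lay over the 3′ part of Mllt1, a part of transcription elongation complexes, and touched the end of the uncharacterised gene 1700061G19Rik by 36 bp. Exons of Mllt1 stood at 1.3, 1.33, 2.56, 3.97 and 3.18 (24 probes) and its 234 intron probes between 0.09 and 0.53.

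The island from 55320000 to 55364999 (chr17:57128547-57173546, 45 kb) held 6 genes. Exons of Gtf2f1, a subunit of the general transcription factor TFIIF, stood at 3.04, 3.01, 4.57, 5.99 and 5.67 (12 probes), the highest among the 46 genes on all 5 arrays. Exons of Khsrp, an RNA-binding protein that regulates splicing and decay, stood at 2.74, 2.95, 3.65, 5.07 and 4.09 (16 probes). Clpp, a mitochondrial protease, stood at 1.08, 0.93, 2.21, 3.5 and 2.79 on 7 exon probes. Alkbh7, a mitochondrial dioxygenase, was near 0 in total RNA (0.18 and 0.08) and at 1.18, 1.95 and 1.65 in polyA RNA. Pspn, a neurotrophic factor gene between them, stayed between 0.09 and 0.65 on 5 exon probes, and Slc25a41 reached into the island by its end. Further islands lay at Slc25a23, a mitochondrial carrier, with the noncoding transcript Gm17168 on the other strand (55375000 to 55384999, at 0.51, 0.56, 1.08, 1.71 and 1.58), and at Gpr108 and Trip10, an adaptor of the actin regulator Cdc42 (55565000 to 55594999, at 0.55, 0.55, 1.02, 1.71 and 1.31).

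Segment 3 held 5 islands, none of which could be tied to a gene. The windows from 90600000 and 91095000 were placed where no gene is annotated, at 92358156 and 92755803. The former was an island in MEFF total RNA alone and lay just above the limit, at 0.44 and 0.44, with 0.19, 0.37 and 0.49 on the other arrays. Its cDNA channel was below the array median on all 5 arrays (-0.07, -0.06, -0.10, -0.14 and -0.30). The window from 39815000 in segment 1, also called in total RNA alone (0.42 and 0.38), had cDNA values of -0.11 and -0.05 there. These islands therefore rest on a dim genomic DNA signal. The islands from 93510000 (1.04, 1.13, 1.42, 2.09 and 1.26) and 93530000 to 93539999 (0.77, 0.66, 1.25, 1.57 and 1.48) were read in all 3 groups and could not be placed, so no gene is named for them. A neighbouring window from 93495000 was called in MEFF polyA RNA alone, at 0.55 and 0.89.

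**Figure D4:**
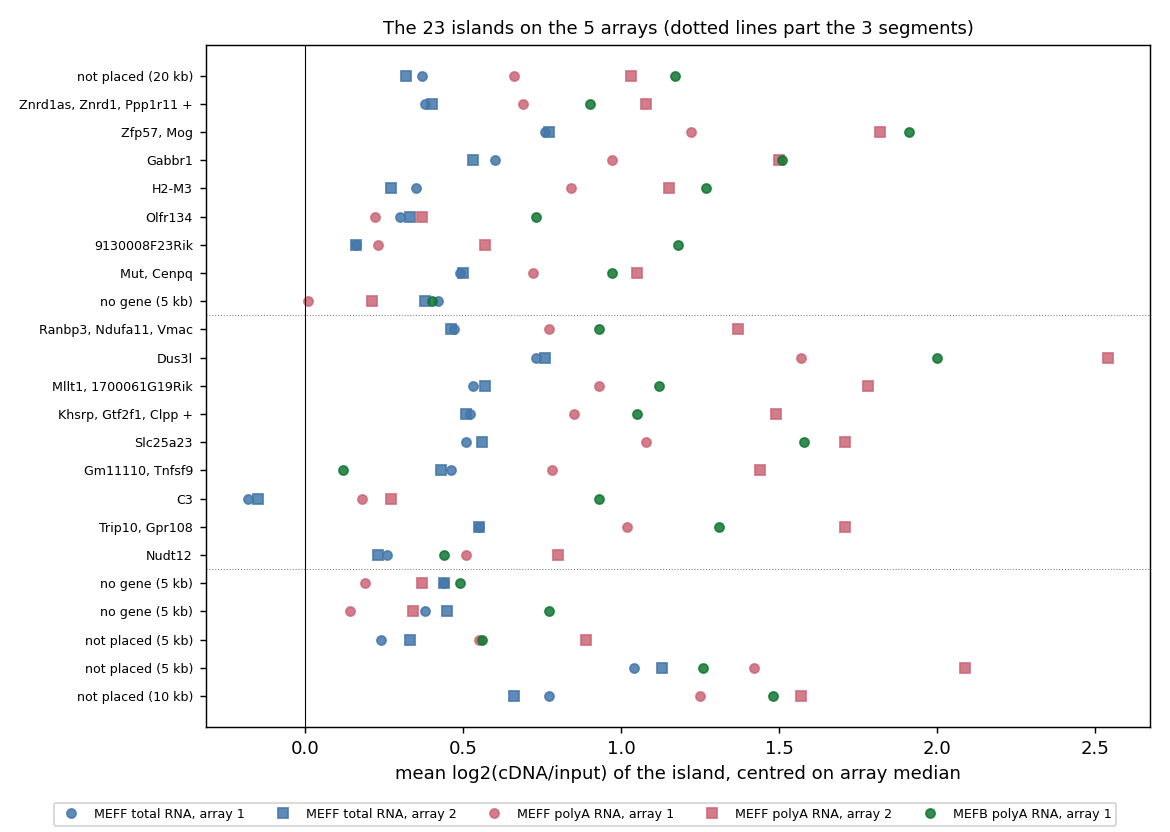
Mean log2(cDNA/input) of each of the 23 islands on the 5 arrays, in order along the chromosome, named by up to 3 overlapping protein-coding genes. Total RNA arrays lie lowest in most islands; the island at Gm11110 and Tnfsf9 has MEFB lowest (0.12) and those at 9130008F23Rik (1.18) and C3 (0.93) have MEFB far to the right of the other arrays.

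Of 49 olfactory receptor genes annotated on chromosome 17, 12 had placed member probes and 8 had at least 3 exon probes. The median over those 8 genes was -0.30, -0.34, -0.24, -0.60 and -0.64, and the highest value was 0.46 (Olfr90 in MEFB, 3 probes). None reached 0.5 on any array. The genes of the family resemble each other, so a probe can bind copies other than its own. A single window at Olfr134 (36720000) was called in MEFB alone at 0.73, with 0.30, 0.33, 0.22 and 0.37 in MEFF, just past the MEFB limit of 0.72. Of 12 genes of the MHC M region, 4 had enough exon probes, with medians of -0.28, -0.20, 0.01, -0.26 and -0.15. H2-M5 was the highest of them, at 0.26, 0.22, 0.55, 1.0 and 1.59 (7 probes), and H2-M11, H2-M1 and H2-M2 did not pass 0.01. Crisp1, with 4 exon probes, stood at 0.11, 0.28, 0.25, -0.06 and 0.56. Placed member probes covered 0 of 45 vomeronasal receptor genes and 0 of 14 other class I genes. Zfp57 was the sole zinc finger gene of that name series among them.

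Some of the genes below 0.5 on every array, picked after their values were seen, are given here. Cntnap5c, a long gene of the contactin-associated family of neurons, had 1915 intron probes averaging -0.17, -0.15, -0.06, -0.26 and -0.09 and 18 exon probes averaging -0.39, -0.14, -0.17, -0.38 and -0.24. Adcyap1 stood between -0.21 and -0.04 on 15 exon probes. Rhag (14 exon probes, between -0.47 and 0.05), the epidermal ceramidase gene Acer1 (12 probes, between -0.77 and -0.11) and Ubd, a ubiquitin-like gene induced by inflammation (8 probes, between -0.97 and -0.66), were low on each array too.

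The part of the island windows that all 3 groups shared was near that over the whole chromosome. Of 72 windows that were island windows in at least 1 group (2036 over the chromosome), 34 were called in all 3 groups. They were 1.75% of the member windows, where 5.84% of all windows were called in all 3. Of the 72 they made up 47.2%, against 44.1% of the 2036 over the chromosome. MEFF total RNA and MEFF polyA RNA shared 40 windows, which is 93.0% of the former's and 70.2% of the latter's, where over the chromosome these shares were 74.0% and 76.5%. MEFF polyA RNA and MEFB shared 41, which is 71.9% of the former's and 77.4% of the latter's, where over the chromosome they were 79.9% and 71.1%. Total RNA alone called 3 windows, MEFF polyA RNA alone 10 and MEFB alone 12, of 72 (222, 126 and 299 of 2036 over the chromosome), and MEFB needs a call on 1 array where the other groups need 2. By island, 13 of 23 had calls in all 3 groups, 3 in 2 groups and 7 in 1 group.

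The comparison of MEFF total RNA with MEFF polyA RNA sets all RNA of a line beside its polyadenylated part. In the 13 islands of all 3 groups, both total RNA arrays read below both polyA arrays as deposited, for example 0.60 and 0.53 against 0.97 and 1.5 at Gabbr1. The limit for a high window was 0.76 on MEFF polyA RNA 2, against 0.40 and 0.38 on the total RNA arrays. The direction against that polyA array is therefore in part built in. The polyA arrays also spread more widely over the whole chromosome, with a standard deviation of windows of 0.371 and 0.63 against 0.357 and 0.354, and the part of this in the differences was not tested. With the arrays set to one distribution by quantile normalization, the island from 93510000 turned to 0.16 higher in total RNA, and the other 12 kept the direction, with mean differences from -0.59 to -0.05. With intensities as deposited, 0 of 1948 member windows passed limma's test, where 0.0% of all windows did. The lowest adjusted p among the members was 0.57, and before adjustment 75 of 1948 had a p under 0.05, beside 1189 of all 15383 windows. Normexp correction subtracts an estimated background from each channel. With it, 31 member windows (1.59%) passed, against 3.37% of all windows. Of these, 28 were lower in total RNA (2.68% of all windows were) and 3 higher (0.689%), and 22 of the 31 were island windows. Islands were called from levels of these same arrays, so that overlap is in part built in. It was not counted over the whole chromosome. Among the lower windows, the largest differences lay at Slc25a23 and Dus3l. The window from 55375000 overlaps Slc25a23 and Gm17168, whose reads cannot be told apart without strand. It had a level of 0.59 and 0.65 with total RNA, below its 1.55 and 2.18 with polyA RNA. Its difference was -1.24 as deposited (SE 0.22, adjusted p = 0.57, limma) and -1.44 after normexp (SE 0.23, adjusted p = 0.002). The window from 55095000 at Dus3l had -1.44 after normexp too (SE 0.25, adjusted p = 0.0028, limma). Those at Trip10 (55590000) and Gabbr1 (35570000) had -1.32 and -1.17 (adjusted p = 0.0045 and 0.007). All of these values are total RNA minus polyA RNA on the log2 scale.

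The calls and sizes of these differences changed with the scaling. After quantile normalization 55 member windows passed, 39 lower and 16 higher in total RNA, where 8.29% of all windows passed (4.45% lower and 3.84% higher), and after loess 0 did. The window at Slc25a23 kept its call after quantile normalization (-0.64, adjusted p = 0.00091, limma) and not after loess (-0.53, adjusted p = 0.39, limma). The brightest window of segment 1, at Zfp57, lost its call after quantile normalization. It had -1.02 after normexp (adjusted p = 0.019, limma) and -0.12 after quantile normalization (adjusted p = 0.5, limma). The MEFF polyA arrays differed between themselves, with 1.79 and 2.81 at Trip10. Without MEFF polyA replicate 1, 380 member windows passed as deposited, where 29.2% of all windows did, and without replicate 2 there were 345, where 20.8% did. Together with normexp these were 84 and 280 (8.34% and 12.9% of all windows), and without total RNA replicate 1 or 2 they were 10 and 5 (1.12% and 0.527%). Of the 31 windows passing after normexp, 10 and 5 kept the call without total RNA replicate 1 or 2, and 29 without either polyA replicate. As deposited, the member windows had a median difference of 0.006, beside -0.011 over all windows, and after normexp -0.11 beside -0.103.

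Setting MEFB against MEFF polyA RNA compares the 2 lines, with 1 MEFB array that is assumed to vary like the others. It shares the MEFF polyA arrays with the comparison above. In bulk RNA, fewer cells that use a gene and less RNA per cell cannot be told apart. As deposited, 0 member windows passed limma's test, where 0.0065% of all windows did, with a lowest adjusted p of 0.066 and 205 of 1948 under 0.05 before adjustment, beside 2415 of all 15383. After normexp, 9 member windows (0.462%) passed, against 3.17% of all windows, 3 higher and 6 lower in MEFB (1.96% and 1.21% of all windows). A trended prior gave 10, quantile normalization 38 and loess 6, where 2.63%, 7.98% (4.04% higher and 3.95% lower) and 2.91% of all windows passed. Without MEFF polyA replicate 1 or 2, 823 and 676 passed as deposited (45.4% and 44.8% of all windows), and 125 and 30 with normexp (13.3% and 4.93%). Without either total RNA replicate, 5 passed with normexp (2.2%). The member windows had a median difference of 0.10, beside 0.007 over all windows, and these were -0.11 and -0.047 with the cDNA channel alone and 0.009 and -0.051 with low-input probes removed. The islands at Gm11110 and Tnfsf9, at 9130008F23Rik and at C3 are described in turn.

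As a ratio, MEFB read the island from 55420000 to 55439999 within the band of silent windows. The gene model Gm11110 (chr17:57231458-57245365, minus strand) overlaps all 4 of its windows. Tnfsf9 (chr17:57244808-57247180, plus strand), which encodes a ligand of the TNF family that costimulates T cells, overlaps the last window, from 55435000, alone. The island was called in the MEFF groups and not in MEFB, so a low MEFB value was a condition of that pattern. The island read 0.46, 0.43, 0.78 and 1.44 on the MEFF arrays and 0.12 in MEFB, so MEFB lay below all 4 MEFF arrays as a ratio. In the cDNA channel alone, its windows read 0.57, 0.83, 0.45 and 0.58 in MEFB, above the silent median of -0.136. MEFB lay below both MEFF polyA arrays in each window there. It lay above both total RNA arrays in the windows from 55420000 (0.55 and 0.51) and 55435000 (0.45 and 0.51). With that channel, the differences from MEFF polyA RNA ran from -1.11 to -0.55. In the window from 55430000, at Gm11110, the values were 0.69, 0.63, 0.88 and 1.64 against 0.10. Its difference from MEFF polyA RNA was -1.16 as deposited (SE 0.32, adjusted p = 0.23, limma) and -2.03 after normexp (SE 0.29, adjusted p = 0.00013). All 4 windows of the island were lower in MEFB after normexp, with differences from -2.03 to -1.28 and adjusted p from 0.00013 to 0.014, and the window that holds Tnfsf9 had -1.69 (adjusted p = 0.0008, limma). They kept the call without each MEFF replicate in turn after normexp, and passed after quantile normalization as well, while after loess the windows from 55425000 and 55430000 passed (adjusted p = 0.026 and 0.037, limma) and with a trended prior none did.

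At 9130008F23Rik, an uncharacterised gene on the minus strand at chr17:41012431-41017507, the island from 39015000 to 39029999 was called in MEFB alone, so a high MEFB value was a condition of its choice. It read 1.18 in MEFB, against 0.16, 0.16, 0.23 and 0.57 on the MEFF arrays. Exons of the gene stood at 0.29, 0.32, 0.75, 1.28 and 1.59 (15 probes), so the gene itself was read in MEFF polyA RNA too. The clearest difference lay beyond its 3′ end, where no gene is annotated: the window from 39015000 (chr17:41003749-41008748) read -0.13, -0.15, -0.04 and -0.01 in MEFF and 1.16 in MEFB. Its difference was 1.18 as deposited (SE 0.093, adjusted p = 0.066, limma) and 1.7 after normexp (SE 0.27, adjusted p = 0.00043), and it held the call after normexp without each MEFF replicate. It also passed after loess (adjusted p = 0.0075), after quantile normalization (0.00016) and with a trended prior (0.0032). The window before it, from 39010000, read 0.52 in MEFB and between -0.08 and -0.02 in MEFF, and was also called after normexp (1.12, adjusted p = 0.024, limma), though not without either MEFF total RNA replicate.

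C3 is the central component of complement. The island from 55545000 to 55554999, inside the gene (chr17:57343397-57367559), was called in MEFB alone too, which fixed its direction. It read 0.93 in MEFB and -0.18, -0.15, 0.18 and 0.27 on the MEFF arrays. The difference of the window from 55550000 was 0.78 as deposited (SE 0.11, adjusted p = 0.11, limma) and 0.88 after normexp (SE 0.27, adjusted p = 0.083). With the median of the probes in place of the mean it was -0.30 (adjusted p = 0.3), so the mean and the median of its 35 probes gave opposite directions. With a trended prior (adjusted p = 0.024) and after quantile normalization (adjusted p = 0.0065) it passed. After loess the difference was 0.26 and it did not pass.

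**Figure D5:**
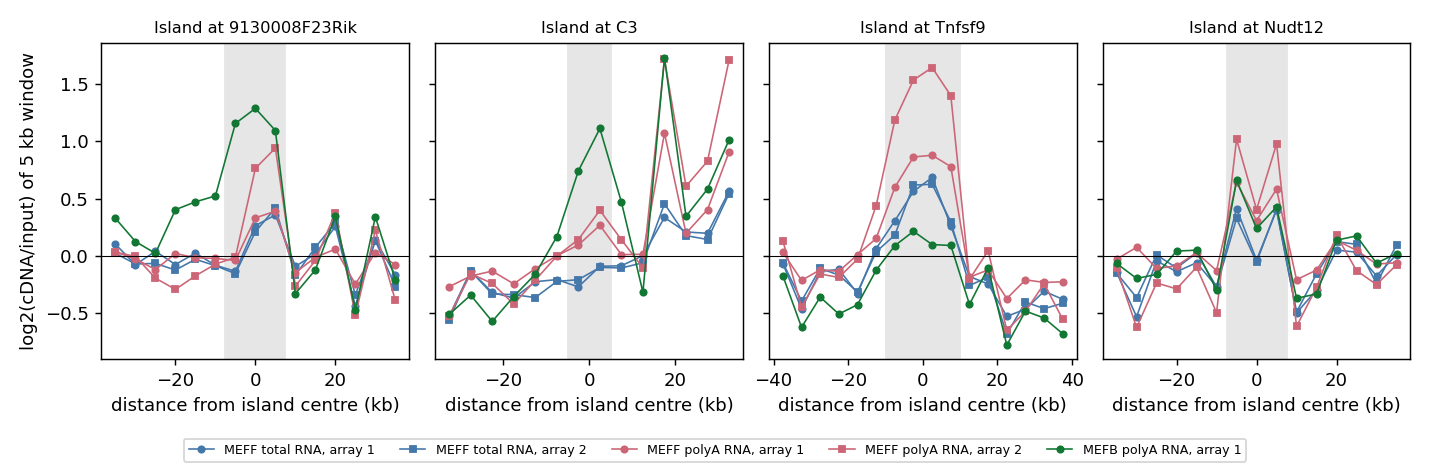
Level of 5 kb windows on the 5 arrays around 4 islands, against the distance from the centre of the island in kb, with the island shaded. MEFB is the highest array in the islands at 9130008F23Rik (1.18) and C3 (0.93) and the lowest at Gm11110 and Tnfsf9 (0.12). At Nudt12 (0.44) its island mean lies below both MEFF polyA arrays and above both total RNA arrays.

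At Nudt12, an enzyme that hydrolyses NADH in peroxisomes, the island from 57330000 to 57344999 was called in both MEFF groups and not in MEFB. The values were 0.26, 0.23, 0.51, 0.80 and 0.44, so MEFB lay below both MEFF polyA arrays and above both total RNA arrays. Its exons stood at 0.71, 0.68, 1.23, 1.98 and 1.1 (28 probes). No window of that island passed after normexp between the lines (lowest adjusted p = 0.15, limma), so a difference was not shown there; after quantile normalization 1 window passed (adjusted p = 0.017). The noncoding transcript 4930505H01Rik overlaps it on the other strand. The window from 35520000, which reaches over the start of Zfp57, read 1.53 in MEFB, above its 0.44 and 0.75 in MEFF polyA RNA, a difference of 0.94 (adjusted p = 0.12, limma) that passed with a trended prior (0.04) and after quantile normalization (0.0016) but not after normexp (0.064). The unplaced window from 93510000 was lower in MEFB after normexp (-1.05, adjusted p = 0.038, limma). It also passed after quantile normalization (-0.51) but not as deposited (-0.49). Its MEFB level of 1.26 lay below the 1.42 and 2.09 of MEFF polyA RNA and above the 1.04 and 1.13 of MEFF total RNA. The call after normexp was lost without either MEFF total RNA replicate.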

How the data were processed

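5 NimbleGen tiling arrays of chromosome 17 were analysed. Per the file headers, NimbleScan 2.2.34 extracted them, and the deposited values are raw intensities of a Cy3 cDNA channel and a Cy5 genomic DNA channel for each probe, with dyes per the labels' protocols. Of 388000 probes, 387986 lay on chromosome 17, at a median spacing of 139 bp. Median cDNA intensity was 2560.56, 2542.22, 1568.44, 568.78 and 747.22 on the 5 arrays, so MEFF polyA RNA 2 and MEFB were the dimmest. The number of arrays limits the precision.

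Each probe's log2(cDNA/input) was centred on the array median and averaged in 5 kb windows with at least 8 probes. Contrasts were fitted on all 15383 windows with limma 3.58.1 (R 4.3.3; lmFit, eBayes, 2 residual degrees of freedom) on all 5 arrays, with no background correction, and p-values were adjusted by Benjamini-Hochberg at 0.05. Alternatives were normexp background correction (offset 50), quantile and loess normalization, a trended prior, the cDNA channel alone and probe medians. Further ones were removal of probes among the dimmest 10% of input on any array, 16 probes per window and 2 groups at a time. Other island thresholds, 10 kb windows and each replicate left out were also used. Normexp with a replicate left out was chosen after seeing the data. The script was tested on simulated data.

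Probes were placed on NCBIM37 (GENCODE M1) by matching the genomic DNA channel with the base composition of 50-base stretches, from 82 anchors among 448 blocks of 100 kb, keeping a posterior of at least 0.99. No probe sequence was used, so gene names rest on this match. Promoter sequences are from RefSeq (GRCm38.p6), matched by symbol, with the first entry of each gene used.

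The members and lists were chosen with earlier results of these data known. Named regions are the 5 longest islands and 3 highest windows of each segment, the longest silent run, and, per comparison and direction, the 5 largest differences among island windows, with every gene they overlap. The islands at H2-M3, Olfr134 and Nudt12, the other called windows named, and the limits of 0.5 for exons and 10 for CG were picked after values were seen.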

Additional observations from a re-analysis of the deposited data

How the results depend on the processing

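The silent level of the segments moved by more than the spread between arrays under 4 settings. MEFB has 1 array and no such spread, so that of the MEFF polyA pair was used for it. It was -0.003 in MEFF total RNA with probe medians and -0.131 after normexp, -0.138 in MEFB with the cDNA channel alone, and -0.261, -0.298 and -0.288 in the 3 groups (total RNA, MEFF polyA RNA, MEFB) with low-input probes removed. The share of island windows was 0.975%, 1.75% and 1.64% with the highest 5% of windows (4.51%, 4.39% and 5.01% of all windows), 0.308% and 1.28% in the MEFF groups (total, then polyA) with a level of at least 1 (1.24% and 2.96%), and 0.667% in MEFF total RNA and 1.8% in MEFB above the median plus 3 scaled MAD (2.99% and 5.34%). Windows called in all 3 groups, 34 as reported, numbered 18 with the highest 5%, 6 with a level of at least 1, 13 with the MAD limit and 22 windows of 10 kb. Member windows that passed between MEFF total RNA and MEFF polyA RNA, 0 as reported, numbered 31 after normexp and 55 after quantile normalization. Leaving out 1 replicate each gave 0 to 380 of them, and with normexp 10 and 5 without total RNA replicate 1 and 2, and 84 and 280 without MEFF polyA replicate 1 and 2. Between MEFB and MEFF polyA RNA, 0 as reported, they numbered 9 after normexp, 38 after quantile normalization, 6 after loess and 10 with a trended prior. Leaving out 1 replicate each gave 0 to 823, and with normexp 5, 5, 125 and 30 in the same order. The high counts came without MEFF polyA replicate 1 or 2, whose difference is then absent from the residual spread. Over 17 named windows, 147 of 216 planned values kept their side of the threshold, 67 passed where the reported value did not, and 2 turned direction. These were the window from 39815000 with the cDNA channel alone (-0.07) and that from 55550000 with probe medians (-0.3). No paired analysis was possible because the labels give no replicate numbers. The fit had 5 arrays and 2 residual degrees of freedom, and the dim input of the segments limits ratios near the silent level.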

Other observations

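Some genes outside the islands had exons above 0.5 on part of the arrays. Rfx2, a transcription factor of ciliated cells, stood at 0.04, 0.04, 0.47, 0.89 and 0.29 on 10 exon probes, in the order of arrays used above. Its 239 intron probes made up most of the gene, and no window of it was an island window. H2-M5, a class I gene of the M region, stood at 0.26, 0.22, 0.55, 1.0 and 1.59 on 7 exon probes, highest in MEFB, and neither gene had a test of its exons. Both were picked after their values were seen.

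Of the 31 member windows called after normexp between total RNA and polyA RNA, 22 were island windows, an overlap that is in part built in. Among the others, the window from 37605000 read 0.32, 0.45, -0.02, 0.04 and 0.30 (difference 1.22, SE 0.23, adjusted p = 0.0047 by limma). The window from 36010000 read -0.78, -0.60, -0.05, -0.62 and -0.09, so the total RNA arrays and MEFF polyA RNA 2 were alike there (difference -1.20, SE 0.27, adjusted p = 0.012 by limma). Neither window is tied to an island.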
